A study of Homo sapiens with 6 samples.

Results

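Caspases cut other proteins during apoptosis, and the 8 genes described here cover both ways in which the first of them are switched on. The initiators CASP8 and CASP10 are assembled on death receptors at the cell surface, CASP2 on a complex named the PIDDosome, and CASP9 on the apoptosome, a wheel built by the scaffold APAF1 when cytochrome c (CYCS) leaves the mitochondria. DIABLO leaves the mitochondria alongside cytochrome c and frees caspases from their inhibitors, and effectors such as CASP6 are cut by initiators and take the cell apart. The caspases are made as inactive proteins that wait in the cell, so a transcript level is not a measure of caspase activity.

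Members were the probe sets that the platform annotation assigned to exactly 1 of CASP2, CASP6, CASP8, CASP9, CASP10, APAF1, DIABLO and CYCS, which gave 26 probe sets of 8 genes among 54613 probe sets tested. A probe set is a group of short probes for one transcript region on an Affymetrix array, and several probe sets can belong to a gene. They are read from the same RNA and are not replicates of each other.

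The samples were 6 arrays (Affymetrix U133 Plus 2.0) of RNA from ONS-76, an established human medulloblastoma cell line, here as total RNA from whole cultures. In the siKDM1A group (3 arrays) the cells had been given 1 siRNA at 10 nM against KDM1A, a histone demethylase that acts on lysine 4 of histone H3, and in the control group (3 arrays) the transfection reagent without siRNA (mock). The paper states 3 independent transfection experiments for each group. The labels place the harvest 48 h after transfection and the paper's account of the arrays 72 h, and the labels write the target as KDM5A with LSD1, an older name of KDM1A, next to it. All arrays came from 1 cell line and all siKDM1A arrays from 1 siRNA, and as the control cells had no siRNA at all, loss of KDM1A and delivery of an siRNA cannot be told apart. Values are log2 RMA values, on which a difference of 1 is a doubling, and the median of all probe sets was 5.09 to 5.16 on the 6 arrays. The probe set of KDM1A read 9.50, 9.57 and 9.49 on the control arrays and 6.25, 6.34 and 6.31 on the siKDM1A arrays, a log2 difference of -3.22 (adjusted p = 7.1e-07, limma), while none of the 5 probe sets of KDM5A passed the test (2 at an unadjusted p under 0.05). Of the neural and progenitor markers checked, 8 of 8 lay above the median of the arrays, and of the granule lineage markers 3 of 5 measured. The signals of each marker class were also summed off the log2 scale, and the log2 of the sum was taken. For leukocytes (1 of 3 above the median), endothelium (2 of 2) and epithelium (1 of 2) it was 6.06 to 6.28, 8.06 to 8.24 and 5.92 to 6.19 in control. In siKDM1A cells it was 6.08 to 6.35, 7.998 to 8.26 and 6.04 to 6.30, so these ranges overlapped. Those of the neural and granule markers did not, at 13.88 to 13.90 and 9.19 to 9.35 in control and 13.66 to 13.78 and 8.98 to 9.02 in siKDM1A cells. Such a sum is led by its brightest marker, for the neural ones VIM (control mean 13.03). VIM had a log2 fold change of -0.13 and did not pass (adjusted p = 0.44, limma). Of single markers MAP2 rose by 1.12 and PECAM1 by 0.35 on the log2 scale, while SOX2, ZIC1 and ZIC2 fell by 0.43, 0.39 and 0.40 (adjusted p = 0.00030, 0.035, 0.048, 0.026 and 0.042 by limma). CDH5, the other endothelial marker, had a value of -0.34 and did not pass (adjusted p = 0.20, limma). The part of these markers in any result below was not tested.

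The starts of APAF1 and CASP8 are shown because APAF1 holds the one member probe set that passed the test and CASP8 the member with the largest positive value. Each sequence is the 250 bases before a RefSeq transcript start (GRCh38.p14, plus strand, written 5′ to 3′), at chr12:98645040-98645289 for APAF1 and at chr2:201233213-201233462 for the outermost start of CASP8. Capitals mark a GC box, searched as GGGCGG and, for the other strand, CCGCCC, with overlapping matches merged.
APAF1: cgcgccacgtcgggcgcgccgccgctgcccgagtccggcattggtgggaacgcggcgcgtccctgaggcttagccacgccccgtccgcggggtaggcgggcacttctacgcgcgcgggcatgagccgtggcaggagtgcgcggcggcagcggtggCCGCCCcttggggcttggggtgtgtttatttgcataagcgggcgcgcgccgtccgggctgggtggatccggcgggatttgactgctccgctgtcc
CASP8: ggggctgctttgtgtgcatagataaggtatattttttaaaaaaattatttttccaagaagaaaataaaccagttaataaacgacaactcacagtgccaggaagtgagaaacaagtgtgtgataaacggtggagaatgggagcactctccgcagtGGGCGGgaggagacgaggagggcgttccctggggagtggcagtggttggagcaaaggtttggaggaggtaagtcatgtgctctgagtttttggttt
Each stretch held 1 GC box. With the 50 bases after the start included, the window of APAF1 had a GC content of 71.3% and that of CASP8 46.3%. RefSeq windows were found for 7 of the 8 genes, and 10 of their 14 windows held a GC box, against 45.0% of all 35116 promoter windows of 300 bases. The GC content of the 14 windows ran from 43.0% to 76.0%, and the lower and upper quartiles of all windows were 47.0% and 68.0%. These matches describe the sequence only, and factor binding at them was not measured.

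Of the 26 member probe sets 1 was lower after KDM1A knockdown, none was higher and 25 did not pass the test (limma, Benjamini-Hochberg over all probe sets, threshold 0.05). The share called was 3.85%, against 5.91% of all probe sets called in either direction, 3.73% called lower and 2.18% called higher. The one that fell was 204859_s_at of APAF1. At an unadjusted limma p under 0.05 there were 6 of 26 (23.1%), against 18.8% of all probe sets. The one-way ANOVA that the methods name called none of the 26 after Benjamini-Hochberg adjustment, against 1.24% of all probe sets, and had 6 at an unadjusted p under 0.05, against 16.5% of all. The median log2 fold change of the members was 0.042 and that of all probe sets 0.014. The 3 siKDM1A arrays did not overlap with the 3 control arrays in 8 of 26 member probe sets (30.8%), 5 higher and 3 lower, against 24.5% of all probe sets. Precision was set by 3 arrays per group: the standard errors of the members ran from 0.080 to 0.18, and their 95% intervals together spanned -0.94 to 0.54. In such bulk RNA, fewer cells of some kind and less RNA per cell cannot be told apart.

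**Figure D1:**
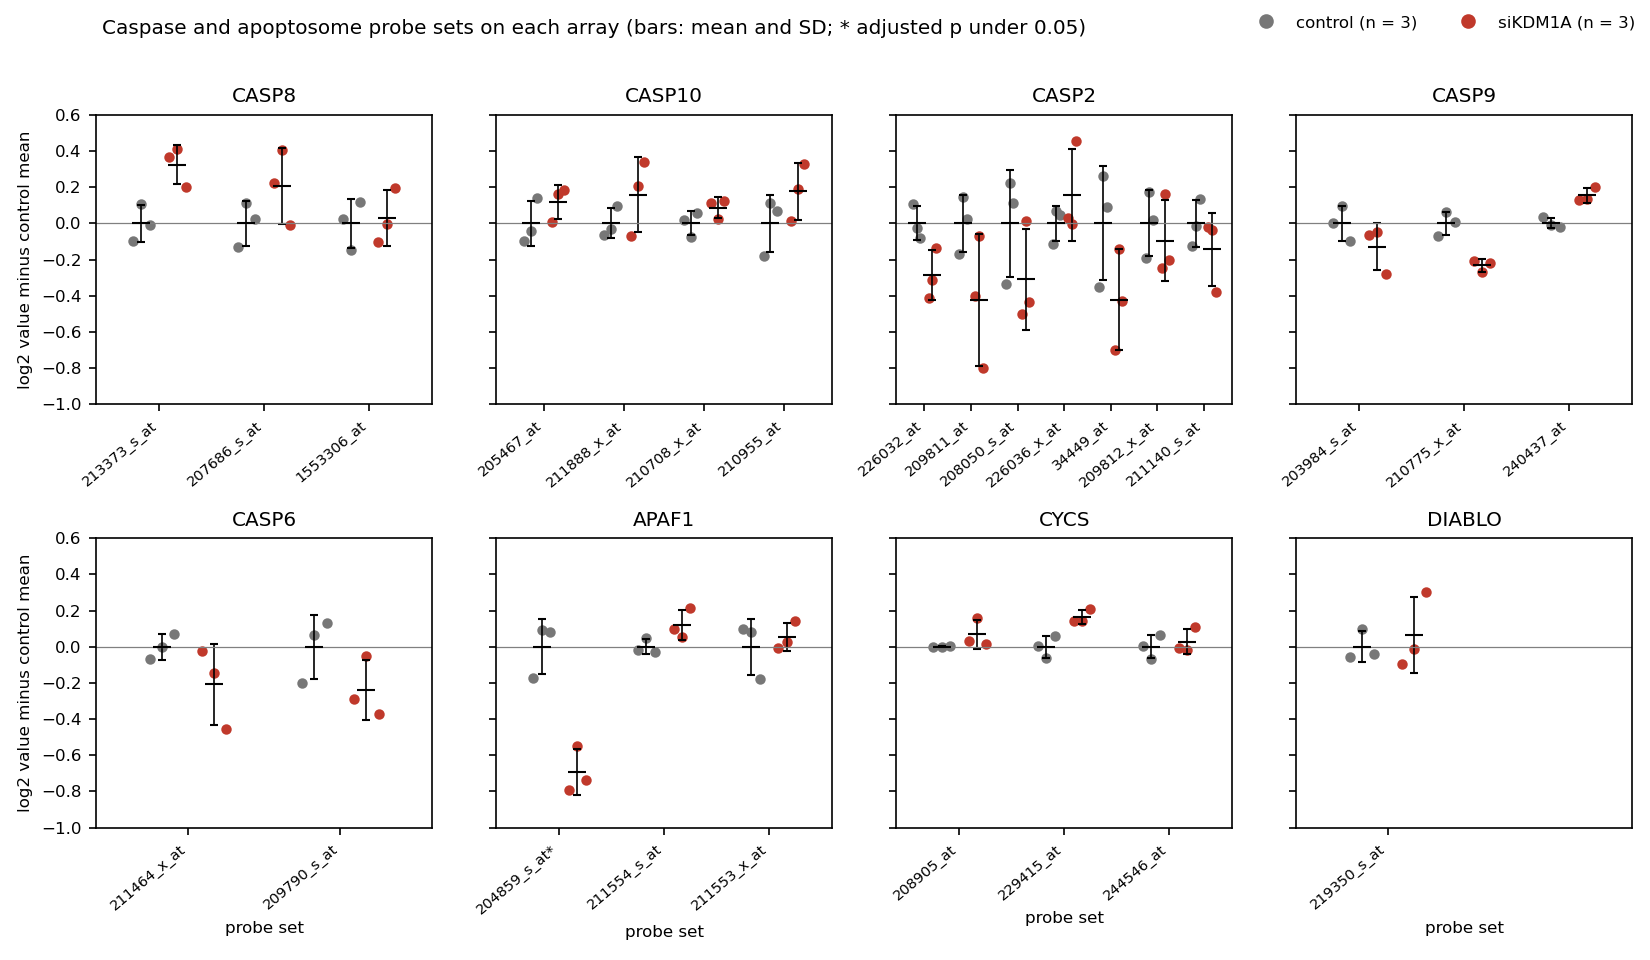
Log2 RMA value of each of the 26 probe sets on each array, minus the mean of its 3 control arrays (y axis), with 1 panel per gene and probe sets along the x axis. Points are arrays, black bars the mean and SD of 3 arrays, and the star marks 204859_s_at of APAF1, where all siKDM1A points lie 0.5 or more below the control mean, unlike those of the other APAF1 probe sets.

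APAF1, the scaffold of the apoptosome, fell on 1 of its 3 probe sets. On 204859_s_at the control arrays read 7.17, 7.44 and 7.43 and the siKDM1A arrays 6.55, 6.80 and 6.61. Every siKDM1A array was below every control array, and the groups did not overlap. The log2 fold change was -0.69 ± 0.11 (SE, 95% interval -0.94 to -0.45), a 1.62-fold decrease (adjusted p = 0.0065, limma). In the one-way ANOVA the same difference had an adjusted p of 0.10. The call held when each array was left out in turn, with log2 fold changes of -0.78 to -0.64 and limma adjusted p of 0.0093 to 0.041.

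The other probe sets of APAF1 did not pass the test. On 211554_s_at the control arrays read 5.82, 5.88 and 5.80 and the siKDM1A arrays 5.93, 5.88 and 6.05. The siKDM1A arrays were all above the controls, with 0.0064 between the nearest arrays of the groups, and the log2 fold change of 0.12 (95% interval -0.070 to 0.32) had an adjusted p of 0.50 in limma. The third, 211553_x_at, was dimmer than the lower quartile on each of the 6 arrays (3.63 to 3.70), its groups overlapped, and its log2 fold change was 0.055 (adjusted p = 0.83, limma). Within each array, 204859_s_at minus 211554_s_at was 1.35, 1.56 and 1.62 in control and 0.62, 0.91 and 0.56 in siKDM1A cells, a change of -0.82. Against 211553_x_at the change was -0.75. As 204859_s_at is the probe set that was called, these differences are a description and carry no test. The mean of all 3 probe sets gave a log2 fold change of -0.17 for APAF1, which did not pass the test (adjusted p = 0.19, limma), so the call rests on the 1 probe set. Which transcripts each probe set detects was not analysed here.

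The genes whose 6 values were nearest to those of APAF1 204859_s_at, each centred on its own control mean, were NCAPG, TTK and WDHD1. NCAPG encodes a condensin subunit, TTK a kinase of the spindle checkpoint and WDHD1 a DNA replication factor. Their root mean square differences from APAF1 over the 6 arrays were 0.039, 0.040 and 0.047 on the log2 scale, and their log2 fold changes were -0.69, -0.66 and -0.75 (adjusted p = 0.010, 0.0061 and 0.0037, limma). Control array a was the lowest control and siKDM1A array b the highest siKDM1A array for each of these 4 probe sets. They were picked from all genes for this likeness, so it is a description and carries no test.

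**Figure D2:**
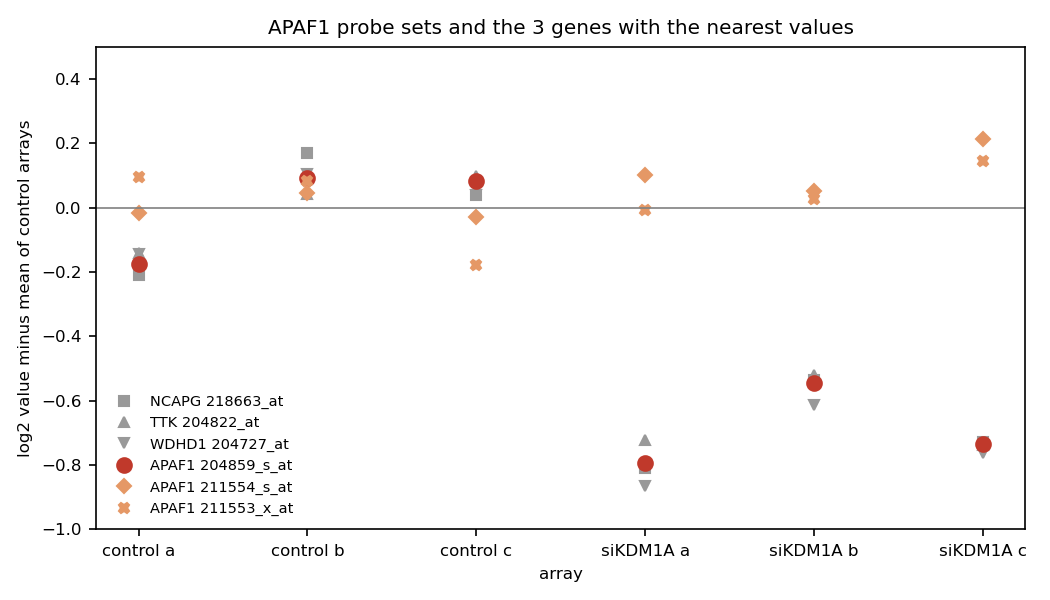
Log2 value minus the mean of the control arrays (y axis) on each of the 6 arrays (x axis) for the 3 probe sets of APAF1 and the 3 genes nearest to 204859_s_at. The siKDM1A points of 204859_s_at, NCAPG, TTK and WDHD1 lie between -0.87 and -0.52, and those of the other APAF1 probe sets lie between -0.0062 and 0.21.

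CASP8, the initiator that death receptors engage through the adaptor FADD, had positive values on all 3 probe sets (on 2 after cyclic loess scaling), and none passed the test. On 213373_s_at the control arrays read 7.53, 7.73 and 7.61 and the siKDM1A arrays 7.99, 8.03 and 7.82. The siKDM1A arrays were all above the controls, and siKDM1A array c lay 0.095 above the highest control. The log2 fold change was 0.33 ± 0.096 (SE, 95% interval 0.11 to 0.54, adjusted p = 0.093 by limma), and after cyclic loess scaling it was 0.39 and passed the test (adjusted p = 0.043). On 207686_s_at the log2 fold change was 0.21 (adjusted p = 0.41, limma), with control arrays at 4.97, 5.22 and 5.13 and siKDM1A arrays at 5.33, 5.51 and 5.10. Its groups overlapped, as siKDM1A array c was below a pair of control arrays. The third, 1553306_at, had a control mean of 3.55, also below those quartiles, with a log2 fold change of 0.029 (adjusted p = 0.93, limma).

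CASP10, the close relative and genomic neighbour of CASP8, had positive values on 4 of 4 probe sets and no call. Its log2 fold changes ran from 0.087 (210708_x_at) to 0.18 (210955_at), with limma adjusted p between 0.47 and 0.65. On 205467_at, the probe set of CASP10 with the highest values, the control arrays read 5.35, 5.40 and 5.59 and the siKDM1A arrays 5.46, 5.61 and 5.63. The groups overlapped there and on the other 3 probe sets. The control levels of those 3 lay below the median of the arrays.

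In the RefSeq order of protein-coding genes on chromosome 2, CFLAR, CASP10 and CASP8 stand next to each other. CFLAR encodes FLIP, a caspase-like protein without enzyme activity that competes with CASP8 on death receptors. Its brightest probe set, 210563_x_at, read 7.09, 7.15 and 7.05 on the control arrays and 6.72, 6.81 and 6.89 on the siKDM1A arrays. All siKDM1A arrays were below the controls, and the log2 fold change of -0.29 (95% interval -0.49 to -0.099) did not pass the test (adjusted p = 0.091, limma). They were also all lower on 209939_x_at, 209508_x_at, 211316_x_at and 210564_x_at (-0.32, -0.23, -0.27 and -0.27). On 237367_x_at and the dim 217654_at they were all higher (0.26 and 0.13). The groups overlapped on the remaining CFLAR probe sets, and no CFLAR probe set passed the test. FADD had a log2 fold change of 0.054 (adjusted p = 0.81, limma) and the death receptor FAS 0.31 (adjusted p = 0.18), and neither passed.

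CASP2, the initiator of the PIDDosome, had negative values on 6 of 7 probe sets, and none passed the test. On 226032_at, the CASP2 probe set with the highest values, the control arrays read 10.30, 10.17 and 10.11 and the siKDM1A arrays 9.78, 9.88 and 10.05. The siKDM1A arrays were all lower, with 0.058 between array c and the lowest control. The log2 fold change was -0.29 ± 0.10 (SE, 95% interval -0.51 to -0.060, adjusted p = 0.15 by limma). Values on 209811_at were 7.23, 7.54 and 7.42 in control and 6.99, 7.32 and 6.60 in siKDM1A cells, with a log2 fold change of -0.42 (adjusted p = 0.21, limma). Those on 34449_at were 6.13, 6.74 and 6.57 in control and 5.78, 6.34 and 6.05 in siKDM1A cells, also with a log2 fold change of -0.42 (adjusted p = 0.24, limma). The groups overlapped on both, as siKDM1A array b was above control array a. The remaining 4 probe sets gave -0.31, -0.14, -0.097 and 0.16 on the same scale, with overlapping groups and adjusted p of 0.39 or more in limma. The positive one, 226036_x_at, has an ending that marks probes shared with other sequences, as has 209812_x_at. Among the members this ending is also carried by 210775_x_at of CASP9, 211464_x_at of CASP6, 211553_x_at of APAF1, and 210708_x_at and 211888_x_at of CASP10. The CFLAR probe sets named above carry it as well, except 217654_at.

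The partners of CASP2 on its platform did not move alike. PIDD1, the scaffold of the PIDDosome, fell: 219019_at read 8.45, 8.25 and 8.35 on the control arrays and 7.75, 7.66 and 7.71 on the siKDM1A arrays. The groups did not overlap, and the log2 fold change was -0.64 ± 0.088 (SE, 95% interval -0.84 to -0.44, adjusted p = 0.0036 by limma). This call held without each array in turn (adjusted p 0.012 to 0.024) and in the one-way ANOVA (adjusted p = 0.048). A further PIDD1 probe set, 221640_s_at, had a log2 fold change of -0.80 (adjusted p = 0.038, limma), which was lost without siKDM1A array a or b or control array a or c, with log2 fold changes of -0.84 to -0.61. CRADD, the adaptor that joins PIDD1 to CASP2, had a log2 fold change of 0.051 (95% interval -0.17 to 0.27, adjusted p = 0.84 by limma).

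CASP9, the initiator of the apoptosome, had no probe set that passed the test. On 210775_x_at the control arrays read 6.86, 6.99 and 6.93 and the siKDM1A arrays 6.72, 6.66 and 6.71. The groups did not overlap, and the log2 fold change of -0.23 ± 0.083 (SE, 95% interval -0.42 to -0.047) had a limma adjusted p of 0.16. On 203984_s_at, the CASP9 probe set with the highest values, the log2 fold change was -0.13 (adjusted p = 0.54, limma) and the groups overlapped. The dim probe set 240437_at read 3.68, 3.64 and 3.63 in control and 3.78, 3.79 and 3.85 in siKDM1A cells, all higher, with a log2 fold change of 0.15 (adjusted p = 0.35, limma).

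CASP6, an effector that cuts nuclear lamins, was the 1 effector caspase among the members. On 209790_s_at the control arrays read 8.07, 8.34 and 8.41 and the siKDM1A arrays 7.98, 8.22 and 7.90. On 211464_x_at they read 8.23, 8.29 and 8.37 in control and 8.28, 8.15 and 7.84 in siKDM1A cells. The groups overlapped on both, through siKDM1A array b on the first and array a on the second. The log2 fold changes were -0.24 (95% interval -0.51 to 0.033, adjusted p = 0.34 by limma) and -0.21 (-0.48 to 0.059, adjusted p = 0.40).

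The proteins released from mitochondria showed no call. CYCS on 208905_at read 12.45, 12.45 and 12.45 in control and 12.48, 12.61 and 12.46 in siKDM1A cells. The siKDM1A arrays were all higher, but array c by only 0.011 over the highest control, and the log2 fold change was 0.069 (95% interval -0.12 to 0.26, adjusted p = 0.73 by limma). On 229415_at CYCS had a log2 fold change of 0.16 (adjusted p = 0.34, limma) with all siKDM1A arrays higher, and on 244546_at one of 0.027 (adjusted p = 0.91). DIABLO, with its single probe set, read 9.95, 10.11 and 9.97 in control and 9.91, 9.998 and 10.31 in siKDM1A cells. Its groups overlapped, siKDM1A array c being the highest of the 6 arrays and array a the lowest, and the log2 fold change was 0.067 (95% interval -0.19 to 0.33, adjusted p = 0.82 by limma).

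**Figure D3:**
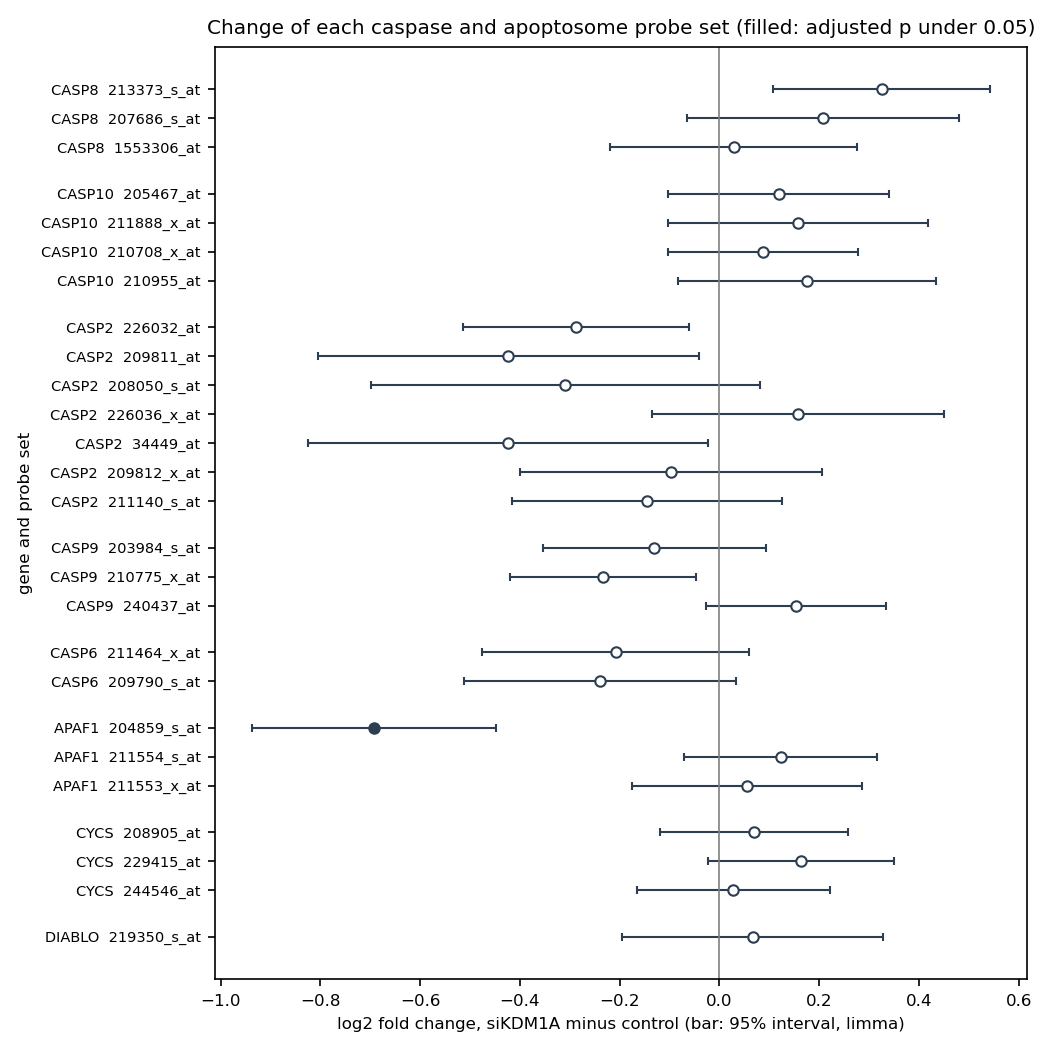
Log2 fold change, siKDM1A minus control (x axis), of the 26 probe sets grouped by gene (y axis), with the 95% interval of limma as bars. Only 204859_s_at of APAF1 is filled (adjusted p under 0.05), at -0.69; all 7 probe sets of CASP8 and CASP10 lie to the right of 0 (6 after cyclic loess scaling), and 8 of 10 of CASP2 and CASP9 to the left.

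Set out by role, the 17 probe sets of the initiators gave 0 limma calls, with 5 (29.4%) at an unadjusted p under 0.05, against 18.8% of all probe sets, and a median log2 fold change of 0.029, and the 2 of CASP6 gave 0 calls with none at an unadjusted p under 0.05 and a median of -0.22. The mean of the initiator probe sets, each centred on its control mean, was -0.10 to 0.060 on the control arrays and -0.11 to 0.048 on the siKDM1A arrays. That of CASP6 was -0.13 to 0.10 in control and -0.41 to -0.100 in siKDM1A cells. The groups of arrays overlapped in both cases, and a difference between initiators and effector was not tested. For CASP8 and CASP10 alone the mean was -0.075 to 0.070 in control and 0.079 to 0.20 in siKDM1A cells, without overlap. The nearest arrays there were control c and siKDM1A a, and they lay closer than the medians of all probe sets on these arrays (5.09 and 5.12). The separation is thus within a small shift of array scaling. For CASP2 and CASP9 alone the mean was -0.12 to 0.098 in control and -0.24 to -0.058 in siKDM1A cells, with overlap. Inside the initiators the signs parted by gene: 7 of 7 probe sets of CASP8 and CASP10 were above 0 (median 0.16, and 6 of 7 after cyclic loess scaling), and 8 of 10 of CASP2 and CASP9 were below 0 (median -0.19), where 53.5% of all probe sets were above 0. The probe sets of a gene share their RNA, so these counts come from 4 genes and are given without a test.

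The genes that act around the caspases were taken as 7 lists with 68 genes, chosen with earlier results of these data known. Of these genes 62 had a probe set of their own, and each was represented by its brightest one. Of the 62, 4 passed the test upward, 5 downward and 53 in neither direction. This was 14.5%, against 8.92% of 19775 genes represented in the same way (5.46% lower and 3.45% higher). Control levels lay below the median of the arrays in 7 of the 62 listed genes and in 6578 of the 19775, so the sets differed in brightness. The part of brightness in these shares was not tested, and the shares are a description. The median log2 fold change was -0.029 for the listed genes and 0.0069 for all genes. In the one-way ANOVA only BCL2A1 and PIDD1 of the listed genes passed (adjusted p = 0.017 and 0.048). BIK, BCL2L1, BCL2L11, BIRC2, BIRC5, LMNB1 and PARP1, called by limma, did not (ANOVA adjusted p of 0.062 to 0.17). For 5 further genes (ANP32A, LMNA, MCL1, PANX1 and PMAIP1) a dimmer probe set passed although the brightest did not.

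The gate of the outer mitochondrial membrane, which decides whether CYCS and DIABLO are released, held 4 of the 9 calls, 3 up and 1 down among 14 measured genes. This was 28.6% of its genes, against 8.92% of all genes taken by their brightest probe set. BCL2A1, a survival protein that blocks the gate, read 2.95, 2.86 and 2.99 on the control arrays and 5.51, 5.74 and 5.70 on the siKDM1A arrays. Its groups lay far apart, but the control values were dimmer than the lower quartile on each array, so the log2 fold change of 2.71 (adjusted p = 4.4e-06, limma) has an uncertain size. BIK, a BH3-only protein that opposes the survival proteins, rose by 0.80 ± 0.11 (SE, adjusted p = 0.0035 by limma), from 6.83, 6.79 and 6.74 to 7.42, 7.81 and 7.53. BCL2L1, whose long form is the survival protein BCL-XL, rose by 0.41 (adjusted p = 0.047, limma), and BCL2L11, the BH3-only protein BIM, fell by 0.44 on the log2 scale (adjusted p = 0.032). The BCL2L1 call was kept only without siKDM1A array a and the BCL2L11 call only without siKDM1A array c among the fits that left out 1 array, where log2 fold changes were 0.32 to 0.48 and -0.52 to -0.36. Dimmer probe sets also passed, 231228_at of BCL2L1 at 0.35 and 208536_s_at of BCL2L11 at -0.56 (adjusted p = 0.045 and 0.029, limma). These were not checked without each array. BCL2L11 1553088_a_at was at 0.069 with all siKDM1A arrays higher, and did not pass (adjusted p = 0.70, limma). BAX and BAK1, which form the pore, did not pass the test (log2 fold changes of -0.30 and 0.18, adjusted p = 0.086 and 0.35 by limma). PMAIP1, the BH3-only protein NOXA, read 9.10, 9.60 and 9.47 in control and 10.08, 10.32 and 9.73 in siKDM1A cells, all higher, with a log2 fold change of 0.65 and a limma adjusted p of 0.056. Its other probe set, 204286_s_at, passed at 0.50 (adjusted p = 0.039, limma). MCL1 was at 0.33 (adjusted p = 0.083, limma) on its brightest probe set and passed at 0.44 (adjusted p = 0.026) on 200798_x_at. The remaining MCL1 probe sets did not pass.

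Among the inhibitors of caspases and their antagonists, 1 of 8 measured genes rose and 1 fell. Together this was 25%, against 8.92% of all genes. BIRC2, the ubiquitin ligase cIAP1, read 8.29, 8.59 and 8.50 in control and 9.05, 9.32 and 9.01 in siKDM1A cells, without overlap. Its log2 fold change was 0.67 ± 0.12 (SE, adjusted p = 0.011 by limma). BIRC5, the mitotic protein survivin, fell by 0.46 on the log2 scale (adjusted p = 0.024, limma), a call kept only without siKDM1A array c when 1 array was left out (-0.50 to -0.40). A dimmer BIRC5 probe set, 202094_at, also passed, at -0.46 (adjusted p = 0.014, limma), and was not checked without each array. The remaining BIRC5 probe sets did not pass. XIAP, the inhibitor that binds CASP9 and that DIABLO displaces, had a log2 fold change of -0.042 (95% interval -0.25 to 0.16, adjusted p = 0.86 by limma), and HTRA2, which like DIABLO leaves the mitochondria, one of -0.18 (adjusted p = 0.30).

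Downstream, 2 of 12 measured caspase substrates fell and none rose on the brightest probe set of each gene. The share called was 16.7%, against 8.92% of all genes. PANX1 rose on a dimmer one, 204715_at, by 0.43 on the log2 scale (adjusted p = 0.029, limma). On its brightest probe set PANX1 was at 0.27 and did not pass (adjusted p = 0.11, limma). LMNB1, which encodes a lamin of the nuclear envelope that is cut during apoptosis, read 10.79, 10.77 and 10.87 in control and 10.16, 10.14 and 9.91 in siKDM1A cells. The groups did not overlap, and its log2 fold change was -0.74 ± 0.097 (SE, adjusted p = 0.0028 by limma). PARP1, a DNA damage sensor and known caspase target, fell by 0.33 on the log2 scale (adjusted p = 0.049, limma), and this call was lost when any 1 array was left out, at log2 fold changes of -0.37 to -0.30. LMNA, a target of CASP6, had a log2 fold change of -0.36 (adjusted p = 0.062, limma) on its brightest probe set and of -0.45 (adjusted p = 0.023) on a dimmer one, 1554600_s_at.

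The other lists held few or no calls. Of 11 measured genes of the activating platforms 1 fell, PIDD1, and none rose (9.09% called, against 8.92% of all genes). None of 4 measured other caspases, 6 proteins of mitochondrial release or 7 apoptosome regulators passed in limma, with 1, 0 and 0 at an unadjusted p under 0.05 (24.2% of all genes) and no call in the one-way ANOVA. The 7 apoptosome regulators all had values below 0, from -0.20 to -0.0022 with a median of -0.062 (5 of 7 after cyclic loess scaling). ANP32A, which favours apoptosome assembly, was at -0.20 on its brightest probe set (adjusted p = 0.53, limma) and at -0.44 (adjusted p = 0.015) on 201038_s_at. The inflammatory caspases CASP1, CASP4 and CASP5 gave log2 fold changes of -0.023, 0.22 and 0.19, with adjusted p of 0.29 or more in limma.

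**Figure D4:**
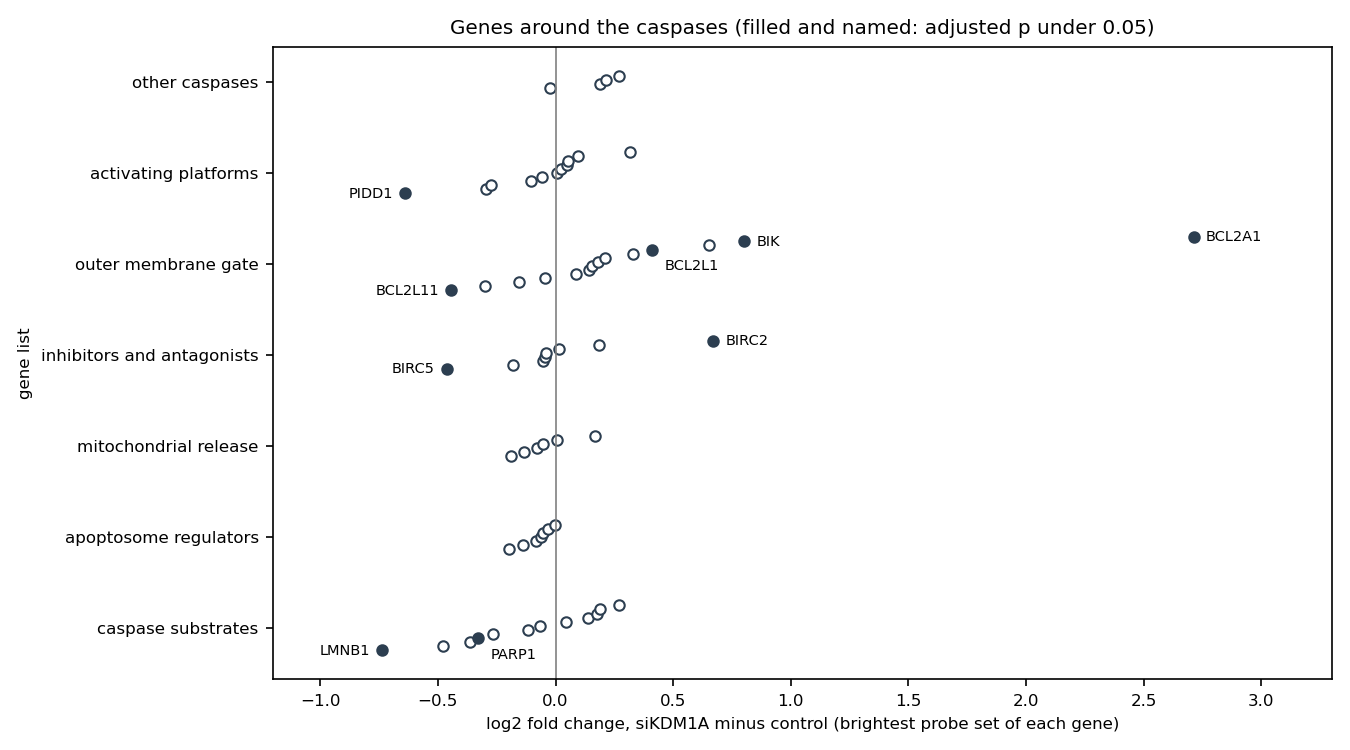
Log2 fold change, siKDM1A minus control (x axis), of the brightest probe set of 62 genes around the caspases, in 7 lists (y axis, points spread vertically within a list). Filled and named points passed the test: 4 genes to the right of 0, with BCL2A1 at 2.71, and 5 to the left.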

How the data were processed

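Gene expression of 3 siKDM1A and 3 control arrays of ONS-76 cells was used as deposited. The authors had processed the scans by RMA with the software Partek Genomics Suite, of a version not given in the sources used here. They deposited 1 log2 value for each of 54675 probe sets on each array. RMA corrects the background and gives the arrays a common distribution, so a shift shared by most genes would be largely removed. Scanner files were not used here, and no detection call was made.

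After 62 Affymetrix controls were left out, 54613 probe sets were fitted by lmFit and eBayes of limma 3.58.1 (R 4.3.3), two-sided, with p adjusted over all of them by Benjamini-Hochberg, with a threshold of 0.05. In the platform annotation 41091 probe sets named 1 gene, 1801 several and 11721 none. The members and lists were chosen with earlier results of these data known. Genes are named by rule: all members with every probe set, KDM1A and KDM5A, listed genes that passed or that bear on a member, and the 3 genes nearest to the member with the smallest adjusted p. ANP32A, LMNA, MCL1, PANX1 and PMAIP1 were named for dimmer probe sets after their values were seen. Further probe sets of BCL2L1, BCL2L11, BIRC5 and CFLAR were also given after their values were seen. Of the listed genes, 6 without a probe set of their own were not analysed here. Arrays correlated at 0.991 to 0.998, and 0 pairs held the same values. Groups were mapped by the sample labels. The fit was tested on simulated data. Alternatives were median centring, cyclic loess, dim or _x_at probe sets left out, a robust prior with an intensity trend, the replicate letter as a block, the one-way ANOVA of the methods, gene means, and each array left out. Promoter sequences are from RefSeq (GRCh38.p14).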

Additional observations from a re-analysis of the deposited data

How the results depend on the processing

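Of the 26 member probe sets 1 was lower in each fit except 2 with the replicate block and 0 in the one-way ANOVA and with gene means (1 to 1 without each array), and 0 were higher except 1 with cyclic loess (0 to 0 without each array). The loess call was CASP8 213373_s_at, and the block call was CASP2 34449_at (log2 fold change -0.42, limma adjusted p = 0.044). Whether the same letters pair the arrays could not be settled: their deviations correlated at 0.11 (a), 0.23 (b) and -0.13 (c). Arrays a and b of siKDM1A were nearest to the control array of their own letter, and array c was nearest to control array a (0.18). With the block 1080 probe sets were higher and 1639 lower, against 1193 and 2037 without it. All probe sets gave 275 higher and 401 lower in the one-way ANOVA, and 609 to 1103 and 694 to 1563 without each array, lowest without control array c. Median centring gave 1048 higher and 2443 lower and cyclic loess 1379 and 1675. Listed genes called higher were 4, but 7 with cyclic loess and 1 in the one-way ANOVA (3 to 4 without each array). Those called lower were 5, but 3 with cyclic loess, 9 with dim probe sets left out, 3 with the replicate block and 1 in the one-way ANOVA, and 2 to 5 without each array (3 without siKDM1A array a, 2 without siKDM1A array b or any 1 control array). Values near 0 changed sign in dim or flat members: CASP8 1553306_at with cyclic loess (-0.0059; -0.054 to 0.096 without each array), CYCS 244546_at with median centring (-0.00070) and cyclic loess (-0.012; -0.013 to 0.059 without each array), APAF1 211553_x_at (-0.034 to 0.10) and DIABLO (-0.052 to 0.15). No other member value changed sign. As a sign of RNA quality, the ACTB controls differed between 3′ and 5′ probes by 0.86 to 1.43 in control and 0.72 to 1.41 in siKDM1A arrays, and its part was not tested. With 3 arrays per group, members that did not pass may still have changed by any amount inside their intervals, and signal near background limits the dim probe sets.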
